A study of Mus musculus with 10 samples.

Results

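The transcripts described here are those of 2 xenobiotic-sensing nuclear receptors and 5 cytochrome P450 enzymes of mouse liver: Nr1i3, which encodes CAR, Nr1i2, which encodes PXR, and Cyp2b9, Cyp2b10, Cyp2b13, Cyp2a4 and Cyp2a5. They were chosen by name, with earlier results of these data known, and are 7 of the 54532 genes in the deposited count table. All 7 were among the 14244 genes that passed the filter on low counts. RNA sequencing of whole liver compared 5 mice given napabucasin (BBI608), a quinone known as a STAT3 inhibitor, with 5 mice given vehicle. The treated mice received 20 mg/kg by mouth each day over 7 days, and the controls received 1% NaCMC (sodium carboxymethyl cellulose) by the same route and schedule. The labels name no genotype, transgene, strain, age or sex, and call the libraries biological replicates, which are numbered 1 to 5 in each group.

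CAR and PXR are receptors of hepatocytes that respond to drugs, steroids and bile acids. Each binds DNA as a heterodimer with the retinoid X receptor and raises transcription of enzymes and transporters that oxidize, conjugate and export foreign compounds. CAR is held in the cytoplasm until it is activated, so the level of its transcript is not a measure of its activity. In mouse liver Cyp2b10 is the classic inducible target of CAR, Cyp2b9 and Cyp2b13 are female-predominant enzymes, Cyp2a4 is a female-predominant steroid hydroxylase, and Cyp2a5 is the coumarin hydroxylase.

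The 5 enzyme genes lie on the plus strand of chromosome 7 within a span of 945929 bases (GRCm38, 25897620 to 26843548), and 4 of them form pairs of close copies, Cyp2a4 with Cyp2a5 and Cyp2b9 with Cyp2b13. Their promoters are shown first because the copies of a pair are nearly identical there, while the share of each copy in the pair's counts, given below, differed between livers. Each window is from RefSeq (GRCm38.p6) and runs from 250 bases before to 50 bases after the annotated start, and all 7 genes were matched by symbol. The windows of Cyp2b9 (chr7:26173159-26173458, plus strand) and Cyp2b13 (chr7:26061245-26061544, plus strand) were identical at 298 of 300 aligned bases. Capitals mark the bases that differ, which are T48C and C104T, counted from the 5′ end of the Cyp2b9 window with the Cyp2b9 base first.
Cyp2b9: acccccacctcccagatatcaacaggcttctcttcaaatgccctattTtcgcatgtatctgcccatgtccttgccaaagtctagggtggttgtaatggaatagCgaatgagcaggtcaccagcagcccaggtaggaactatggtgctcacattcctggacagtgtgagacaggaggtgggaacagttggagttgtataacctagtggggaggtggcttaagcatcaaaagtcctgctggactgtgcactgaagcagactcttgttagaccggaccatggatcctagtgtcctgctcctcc
Cyp2b13: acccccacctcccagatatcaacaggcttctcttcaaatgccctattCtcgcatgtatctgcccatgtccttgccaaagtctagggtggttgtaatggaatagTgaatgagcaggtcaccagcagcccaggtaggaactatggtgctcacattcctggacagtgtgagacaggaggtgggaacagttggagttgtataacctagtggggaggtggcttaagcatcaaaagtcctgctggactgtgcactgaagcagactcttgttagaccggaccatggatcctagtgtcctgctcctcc

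The windows of Cyp2a4 (chr7:26306942-26307241, plus strand) and Cyp2a5 (chr7:26835089-26835388, plus strand) were identical at 294 of 299 aligned bases, with the differences again in capitals. They are C19T, T131C, G161A, G205T and T270C, counted from the 5′ end of the Cyp2a4 window with the Cyp2a4 base first.
Cyp2a4: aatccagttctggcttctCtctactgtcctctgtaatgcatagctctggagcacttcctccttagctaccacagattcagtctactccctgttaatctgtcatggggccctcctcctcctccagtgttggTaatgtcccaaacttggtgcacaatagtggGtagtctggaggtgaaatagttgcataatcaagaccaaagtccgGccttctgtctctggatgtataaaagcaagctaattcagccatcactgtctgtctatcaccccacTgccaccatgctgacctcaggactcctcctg
Cyp2a5: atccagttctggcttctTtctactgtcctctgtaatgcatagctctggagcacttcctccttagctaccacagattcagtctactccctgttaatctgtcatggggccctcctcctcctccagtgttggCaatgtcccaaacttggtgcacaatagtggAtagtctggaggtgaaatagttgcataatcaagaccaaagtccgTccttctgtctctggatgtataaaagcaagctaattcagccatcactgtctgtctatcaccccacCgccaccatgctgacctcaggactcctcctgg

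Cyp2b10 stands apart within its subfamily. Its window (chr7:25897408-25897707, plus strand) was identical to that of Cyp2b9 at 76.1% of 289 aligned bases, and capitals mark its match to the C/EBP-type motif TTGCNNAA.
Cyp2b10: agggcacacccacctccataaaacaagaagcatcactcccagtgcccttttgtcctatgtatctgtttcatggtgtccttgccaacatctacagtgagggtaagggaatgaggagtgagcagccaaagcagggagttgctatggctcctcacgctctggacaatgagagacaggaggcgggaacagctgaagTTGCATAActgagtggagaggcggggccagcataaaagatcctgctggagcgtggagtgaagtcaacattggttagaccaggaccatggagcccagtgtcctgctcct

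Motifs were searched on both strands of the 7 windows and of all 32851 RefSeq promoter windows of the same length. TTGCNNAA was found in all 5 enzyme windows and in neither receptor window, and 10.8% of all windows held it. The copies of a pair are nearly identical there, so the 5 windows are not 5 separate cases. In Cyp2b10, Cyp2a4 and Cyp2a5 the matched letters were TTGCATAA, beginning 58, 70 and 71 bases before the start, while in Cyp2b9 and Cyp2b13 they were TTGCCAAA, 180 bases before it. AGGTCA, the core motif of many nuclear receptors, was found once each in Cyp2b9, Cyp2b13, Cyp2a4 and Cyp2a5, and 16.3% of all windows held it. In Cyp2b9 and Cyp2b13 the match began 138 bases before the start, and in Cyp2a4 and Cyp2a5 it lay after the start on the minus strand. The direct repeat of AGGTCA with a gap of 4 bases was found in 0 of the 7 windows and 0.015% of all, and the D-box motif TTANGTAA in 0 of the 7 and 2.32% of all. A TATA box, TATAAA, was found in Cyp2a4 and Cyp2a5 and in 13.6% of all windows. These matches describe the letters only, and the windows do not reach distal enhancers.

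The likeness of the copies bears on how far their counts can be separated. In GENCODE M21 (GRCm38), the coding sequences of Cyp2a4 and Cyp2a5 differed at 23 of 1482 bases, with a longest identical run of 216 bases. Those of Cyp2b9 and Cyp2b13 differed at 107 of 1473 bases, with a longest identical run of 113. The 90 coding bases with the most differences in each pair are shown because reads that cover such stretches can be assigned to 1 copy, with capitals where the copies differ. For Cyp2a4 and Cyp2a5 they are coding bases 580 to 669, with 5 differences, and for Cyp2b9 and Cyp2b13 coding bases 1037 to 1126, with 17.
Cyp2a4: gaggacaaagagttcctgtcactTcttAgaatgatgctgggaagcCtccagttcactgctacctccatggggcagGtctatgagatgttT
Cyp2a5: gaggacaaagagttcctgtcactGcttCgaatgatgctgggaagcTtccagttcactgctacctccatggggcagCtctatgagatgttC
Cyp2b9: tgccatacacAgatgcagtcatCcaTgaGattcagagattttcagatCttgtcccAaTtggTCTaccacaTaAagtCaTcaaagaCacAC
Cyp2b13: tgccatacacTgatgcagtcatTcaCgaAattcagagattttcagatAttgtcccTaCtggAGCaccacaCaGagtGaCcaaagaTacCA

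Of all 100-base stretches of the Cyp2a4 transcript, 11.2% occurred unchanged in a transcript of another Cyp2 gene, as did 14.4% of those of Cyp2a5. The share was 1.18% for Cyp2b9 and for Cyp2b13, and 0 of 1723 stretches for Cyp2b10. At 50 bases the shares were 38.0% for Cyp2a4, 40.8% for Cyp2a5, 10.8% for Cyp2b9, 20.0% for Cyp2b13 and 9.02% for Cyp2b10. Read length and the treatment of reads that map to several places are unknown here, so the separate values of Cyp2a4 and Cyp2a5 are uncertain and their sum is given beside them. Nr1i3 shares 4691 bases of its span with Tomm40l on the opposite strand, and the strand setting of the counts is not given. Tomm40l held 799 counts over the 10 libraries against 7241 for Nr1i3.

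Library totals ran from 14124484 to 17759967 counts. Hepatocyte markers were abundant in every library, with a summed level of 42446 to 156237 CPM (counts scaled to library size by TMM) in vehicle and 71738 to 129489 CPM in napabucasin livers. Vehicle replicate 2 had the lowest albumin (Alb) level, 28363 CPM against 54060.4 to 124696 CPM in the other libraries. All 8 lymphocyte markers lay higher in napabucasin livers, with summed levels of 16.8 to 24.3 CPM in vehicle and 39.3 to 78.1 CPM in napabucasin livers. All 7 macrophage, 6 endothelial and 6 stellate cell markers also lay higher, where 50.1% of all genes did. All 8 hepatocyte markers lay lower (median log2 fold change -0.23), where 49.9% of all genes did. With library size as the only scaling 6 of the 8 did (median -0.11). By edgeR 8 lymphocyte, 2 macrophage, 3 endothelial and 4 stellate cell markers were higher at an unadjusted p under 0.05, and 1 hepatocyte marker lower. Over all genes the shares were 9.34% higher and 5.83% lower. The part of these differences in the members' values was not tested. Mitochondrial genes took 19.0% of counts in vehicle replicate 1, 7.03% to 8.78% in the other vehicle livers and 9.03% to 19.9% in napabucasin livers. In whole liver, fewer cells of a type and less RNA per cell cannot be told apart. Xist, the RNA of the inactive X chromosome, was present at 178 to 951 CPM in all 10 libraries, and 4 Y-linked genes together held 0 to 6 counts per library, so the female-predominant enzymes were measured in livers with a female pattern of these genes.

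Napabucasin and vehicle livers were compared gene by gene, and no member differed beyond the spread between livers. edgeR's quasi-likelihood test with Benjamini-Hochberg adjustment over all 14244 genes called 0 of the 7 at an adjusted p under 0.05, where it called 0% of all genes. At an unadjusted p under 0.05 it gave 0 of the 7, where it gave 15.2% of all genes, 9.34% higher and 5.83% lower. With a block for replicate number it gave Cyp2a4 alone of the 7, lower, where it gave 1255 of 14244 genes lower. DESeq2 and limma-voom with quality weights also called 0 of the 7 after adjustment, where they called 1.7% and 1.1% of all genes. At an unadjusted p under 0.05 they gave 1 and 3 of the 7, all lower, where they gave 7% and 11% of all genes lower. The fitted change was below 0 for 4 of the 5 enzymes and above 0 for Cyp2b10 and both receptors, where 49.9% of all genes were below 0 and 50.1% above. The median log2 fold change (napabucasin over vehicle) was -0.66 over the 5 enzymes and 0.00 over all genes. The enzyme median was -0.21 without vehicle replicate 5 and -0.84 without vehicle replicate 2. It counts the copies of each pair, which can share reads, as separate genes.

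**Figure D1:**
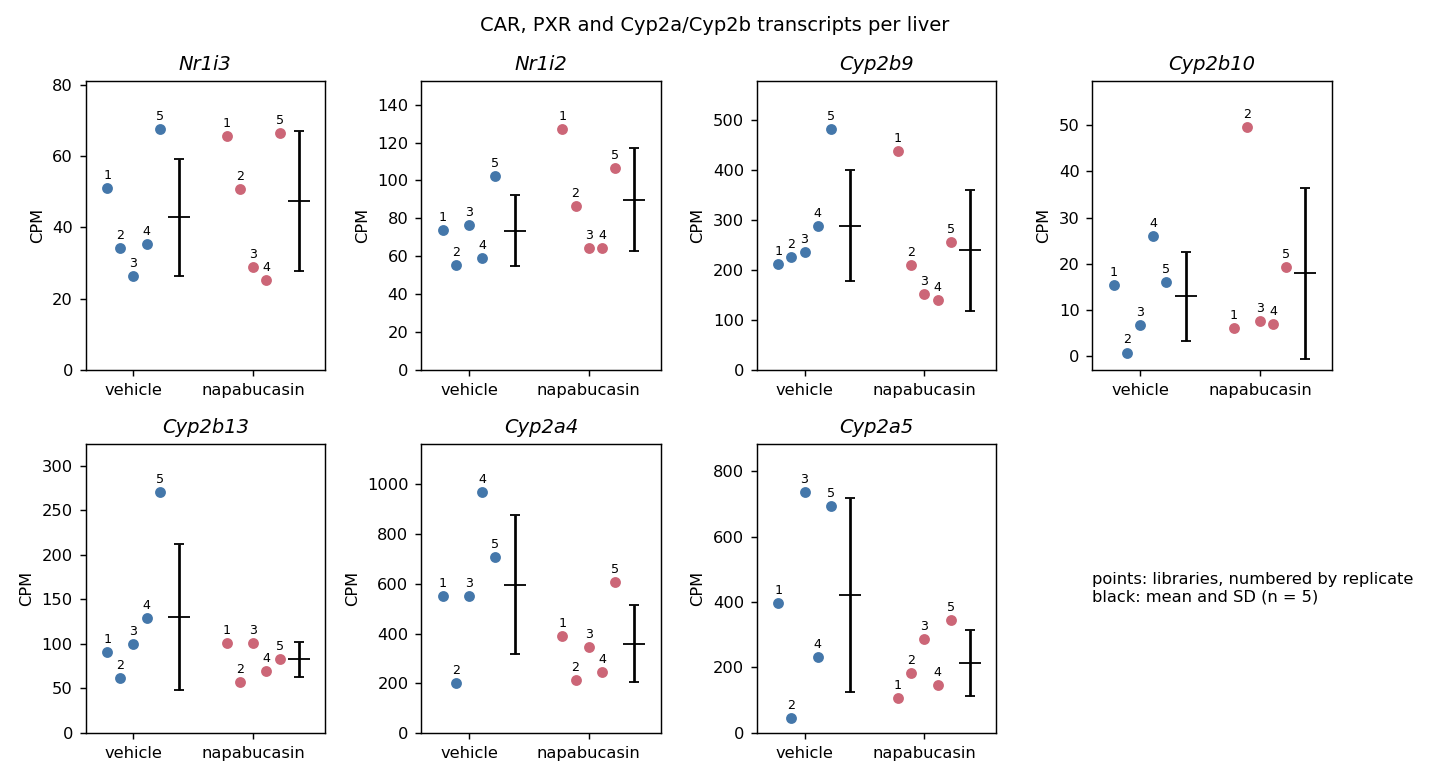
Level of each transcript in each library, in CPM scaled by TMM, on linear axes; points are libraries numbered by replicate, and black bars are the mean and SD of 5 libraries. The groups overlap for all 7 genes: Cyp2a5, for example, runs from 45.8 to 737 CPM in vehicle and from 106 to 346 CPM in napabucasin livers.

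The receptors were similar in level between groups. Nr1i3 (CAR, ENSMUSG00000005677, chromosome 1, 171213970 to 171220701) measured 51.0, 34.2, 26.4, 35.2 and 67.5 CPM in vehicle replicates 1 to 5 and 65.6, 50.7, 29.0, 25.4 and 66.5 CPM in napabucasin replicates 1 to 5. Vehicle livers ran from 26.4 to 67.5 CPM and napabucasin livers from 25.4 to 66.5 CPM, so the groups overlapped almost completely. The means were 42.9 ± 16.4 and 47.4 ± 19.6 CPM (SD, n = 5 each), with a log2 fold change of 0.15 (SE 0.31, 95% interval -0.52 to 0.82, edgeR adjusted p = 0.831).

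Nr1i2 (PXR, ENSMUSG00000022809, chromosome 16, 38248323 to 38294824, minus strand) measured 73.8, 55.6, 76.6, 59.1 and 103 CPM in vehicle and 127, 86.6, 64.6, 64.4 and 107 CPM in napabucasin livers. Napabucasin replicates 1 and 5 lay above the vehicle range and the other 3 within it. The log2 fold change was 0.29 (SE 0.23, 95% interval -0.21 to 0.79, edgeR adjusted p = 0.542). The intervals of both receptors leave out changes above 1.76-fold, and changes to below 0.695 times the vehicle level.

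Cyp2b10, the enzyme by which CAR activation is usually read, was low and uneven in both groups. Cyp2b10 (ENSMUSG00000030483, chromosome 7, 25897620 to 25926624) measured 15.4, 0.827, 6.68, 26.1 and 16.0 CPM in vehicle and 6.11, 49.6, 7.74, 7.05 and 19.4 CPM in napabucasin livers. Vehicle replicate 2, with 18 counts, was the lowest library and napabucasin replicate 2, with 917 counts, the highest, a 60.0-fold range between livers. The log2 fold change of 0.47 (SE 0.74, 95% interval -1.12 to 2.07, edgeR adjusted p = 0.760) rested on napabucasin replicate 2: without it the value was -0.38. The other 4 napabucasin livers all lay within the vehicle range.

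The female-predominant Cyp2b9 and Cyp2b13 were more even between livers than Cyp2b10, with a 3.44-fold and a 4.70-fold range. Cyp2b9 (ENSMUSG00000040660, chromosome 7, 26173411 to 26210661) measured 212, 227, 236, 288 and 482 CPM in vehicle and 439, 211, 153, 140.1 and 256 CPM in napabucasin livers. Napabucasin replicates 2, 3 and 4 lay below the vehicle range, while replicate 1 was close to the highest vehicle liver. The log2 fold change was -0.27 (SE 0.33, 95% interval -0.97 to 0.44, edgeR adjusted p = 0.688), -0.01 without vehicle replicate 5 and -0.61 without napabucasin replicate 1.

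Cyp2b13 (ENSMUSG00000040583, chromosome 7, 26061497 to 26096197) measured 91.3, 61.6, 99.6, 129 and 271 CPM in vehicle and 101, 57.6, 101, 69.9 and 83.2 CPM in napabucasin livers. All 5 napabucasin livers lay below the vehicle mean of 130.5 ± 82.1 CPM (SD, n = 5), which vehicle replicate 5 raised. The log2 fold change was -0.66 (SE 0.34, 95% interval -1.39 to 0.07, edgeR adjusted p = 0.365), and without vehicle replicate 5 it was -0.21. For the sum of Cyp2b9 and Cyp2b13 the log2 fold change was -0.38 (SE 0.32, 95% interval -1.06 to 0.30, edgeR adjusted p = 0.554), and -0.06 without vehicle replicate 5.

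The Cyp2a enzymes had the largest fitted differences of the 7 genes, both lower in napabucasin livers. Cyp2a4 (ENSMUSG00000074254, chromosome 7, 26307169 to 26315088) measured 551, 199.5, 550.4, 970.0 and 707 CPM in vehicle and 388, 213, 345, 244 and 607 CPM in napabucasin livers. Vehicle replicate 2 was the lowest of all 10 livers, and apart from it only napabucasin replicate 5 reached the vehicle range. The means were 596 ± 279.9 and 359 ± 156 CPM (SD, n = 5 each). The fitted log2 fold change was -0.73 (SE 0.38, 95% interval -1.54 to 0.08, edgeR adjusted p = 0.368).

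Cyp2a5 (ENSMUSG00000005547, chromosome 7, 26835305 to 26843548) measured 398, 45.8, 737, 233 and 692 CPM in vehicle and 106, 183, 288, 147 and 346 CPM in napabucasin livers. It varied 16.1-fold between livers, with vehicle replicate 2 lowest and vehicle replicates 3 and 5 highest, so the vehicle range enclosed every napabucasin liver. The log2 fold change was -0.98 (SE 0.55, 95% interval -2.17 to 0.21, edgeR adjusted p = 0.402). For the sum of both Cyp2a genes, which does not depend on how reads were split between these copies, it was -0.83 (SE 0.40, 95% interval -1.68 to 0.03, edgeR adjusted p = 0.344). Some 50- and 100-base stretches of both also occur in Cyp2a21-ps, and how reads that map to several places were treated is unknown. Vehicle replicate 2, low in both Cyp2a genes and in Cyp2b10, was also the liver with the lowest albumin, and the part of this in the results was not tested. Without it, the log2 fold change was -0.95 for Cyp2a4 (edgeR adjusted p = 0.183) and -1.26 for Cyp2a5 (edgeR adjusted p = 0.179). The differences were smaller elsewhere: Cyp2a4 had -0.48 without vehicle replicate 4 (edgeR adjusted p = 0.593), and Cyp2a5 had -0.68 without vehicle replicate 3 (edgeR adjusted p = 0.659), -0.62 by limma-voom and -0.60 on log2(FPKM + 1).

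**Figure D2:**
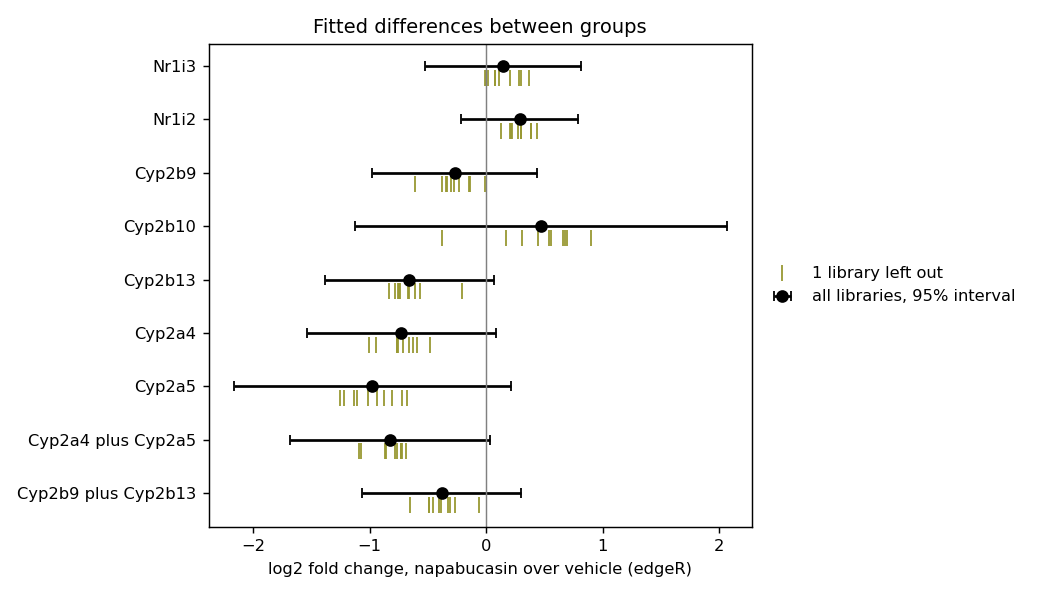
Log2 fold change of each gene and of the 2 summed pairs, napabucasin over vehicle, from edgeR; circles and bars are the value from all 10 libraries with its 95% interval, and ticks are the values with 1 library left out. All 9 intervals, from the fit without a replicate block, cross 0, and the ticks of Nr1i3 and of Cyp2b10 lie on both sides of it.

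Per length, the order of the genes was led by the Cyp2a and Cyp2b9 transcripts. In the authors' FPKM, which divide by gene length and depth and so allow a comparison between genes, Cyp2a4 averaged 273 ± 143 FPKM over the 10 livers (SD, n = 10), Cyp2a5 152 ± 114 and Cyp2b9 139.6 ± 60.2. Cyp2b13 followed at 56.5 ± 33.6 FPKM, Nr1i2 at 31.7 ± 9.07, Nr1i3 at 10.1 ± 3.86 and Cyp2b10 at 7.26 ± 6.61. Cyp2a4 exceeded Cyp2a5 in 9 of 10 livers, while Cyp2a5 exceeded Cyp2b9 in only 5 of 10, so those neighbours did not differ beyond their spread. Their order was also not the same in both groups: Cyp2a5 averaged 203 ± 144 and Cyp2b9 153.6 ± 61.8 FPKM in vehicle, against 102 ± 48.1 and 126 ± 62.1 FPKM in napabucasin livers (SD, n = 5 each). Cyp2b9 exceeded Cyp2b13, and Nr1i2 exceeded Nr1i3, in 10 of 10 livers. Nr1i3 exceeded Cyp2b10 in 8 of 10, the exceptions being vehicle replicate 4 (7.94 against 12.3 FPKM) and napabucasin replicate 2 (11.3 against 23.2 FPKM).

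The balance within each pair differed widely between livers, and no difference between the groups was detected. Cyp2a5 made up 41.9%, 18.7%, 57.2%, 19.3% and 49.5% of the Cyp2a4 and Cyp2a5 counts in vehicle and 21.4%, 46.1%, 45.5%, 37.5% and 36.3% in napabucasin livers. The 95% Wilson intervals of these shares, which cover counting error only, were narrow, such as 17.7% to 19.7% for vehicle replicate 2 (5343 counts), and they do not cover how reads were assigned between the copies. The group means were 37.3% ± 17.6 and 37.4% ± 9.99 (SD, n = 5 each, exact two-sided permutation p = 1.00, adjusted over 2 shares 1.00). Cyp2b13 made up 29.6% ± 5.27 of the Cyp2b9 and Cyp2b13 counts in vehicle and 27.6% ± 8.74 in napabucasin livers (SD, n = 5 each, exact two-sided permutation p = 0.675, adjusted 1.00), with extremes of 18.8% in napabucasin replicate 1 and 39.7% in napabucasin replicate 3. The smallest p this design allows is 0.0079.

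**Figure D3:**
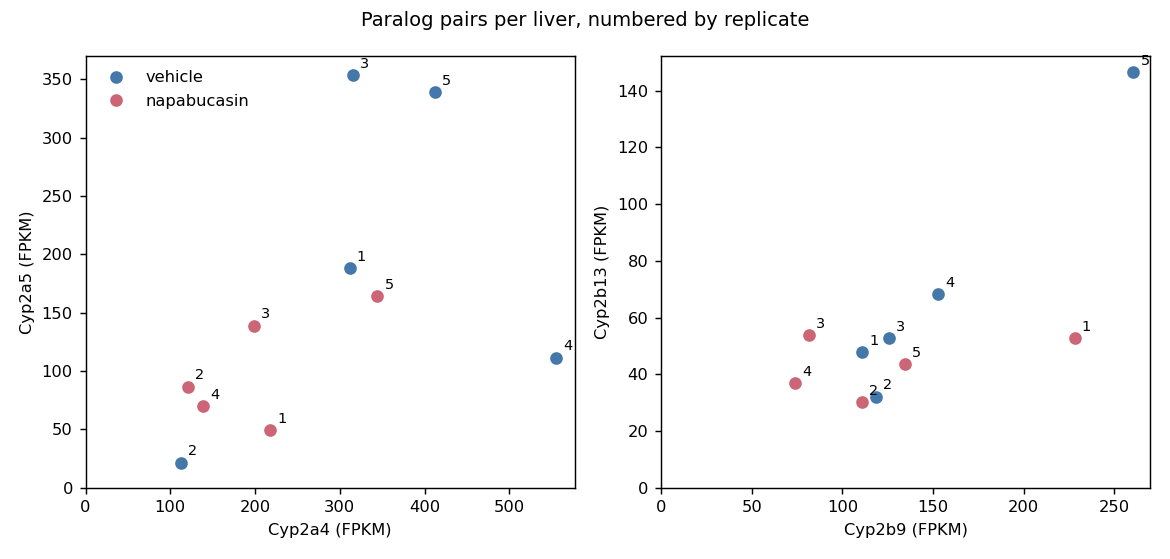
Each liver's level of the copies of a pair, in the authors' FPKM on linear axes, with points numbered by replicate and coloured by group. The Cyp2a5 share was highest in vehicle replicate 3 (57.2%) and lowest in vehicle replicates 2 (18.7%) and 4 (19.3%), and vehicle replicate 5 is highest in both Cyp2b9 and Cyp2b13.

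Nr1i3, Nr1i2 and Cyp2b9 varied together from liver to liver by Pearson's r. After removal of the group means from log2 CPM, 21 pairs of members were compared over the 10 livers. Nr1i2 and Cyp2b9 had the strongest relation, with Pearson r = 0.87 (permutation p = 0.00085, adjusted 0.0178) and Spearman rho = 0.85 (permutation p = 0.0031, adjusted 0.0645). Nr1i3 and Nr1i2 had r = 0.83 (permutation p = 0.0046, adjusted 0.0377) and rho = 0.78 (permutation p = 0.0107, adjusted 0.0752), and Nr1i3 and Cyp2b9 had r = 0.79 (permutation p = 0.0054, adjusted 0.0377) and rho = 0.78 (permutation p = 0.0104, adjusted 0.0752). Without the 2 livers farthest from the median of the first-named gene, r was 0.65, 0.74 and 0.66. These 3 relations were thus positive without them, though by Spearman's rho none passed after adjustment. Such values are not particular to these genes, since each had a higher r with a gene outside the members. The highest of 13335 other genes were Cnst with Nr1i3 (0.97), Dnmbp with Nr1i2 (0.97) and Tmem245 with Cyp2b9 (0.98). The share of all genes with an r as high as in the 3 relations was not counted. No correlation is given within a group, which holds 5 livers. The permutations treat the 10 livers as exchangeable, although same-numbered livers had deviations with a weak positive correlation over all tested genes (r of 0.154 to 0.278). Nr1i3 was at 51.0 and 65.6 CPM in the livers numbered 1 and at 26.4 and 29.0 CPM in those numbered 3. In those numbered 2 it was at 34.2 and 50.7 CPM. The part of such shared deviations in the 3 relations was not tested.

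For Cyp2b10 no relation to the receptors was detected. Its r was 0.37 with Nr1i3 (permutation p = 0.293, rho = 0.37, permutation p = 0.294), and 0.29 with Nr1i2 (permutation p = 0.429, rho = 0.18, permutation p = 0.630). Without the 2 livers farthest from the median of Nr1i3 the first was 0.27, and without the 2 farthest for Nr1i2 the second was 0.49. Both checks kept vehicle replicate 2 and napabucasin replicate 2, the extremes of Cyp2b10. The largest r of Cyp2b10 was with Cyp2a5, 0.63 (permutation p = 0.0543, rho = 0.45, permutation p = 0.191), and r was 0.28 without vehicle replicate 2 and napabucasin replicate 2. Cyp2a4 and Cyp2a5, near-identical in promoter and coding sequence, had r = 0.66 (permutation p = 0.0429, adjusted 0.168) and rho = 0.36 (permutation p = 0.314, adjusted 0.434), and r = 0.47 without vehicle replicates 2 and 4. Cyp2b9 and Cyp2b13 had r = 0.62 (permutation p = 0.0560, adjusted 0.168) and rho = 0.54 (permutation p = 0.113, adjusted 0.297), and r = 0.09 without vehicle replicate 5 and napabucasin replicate 1, so this relation rested on those livers.

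**Figure D4:**
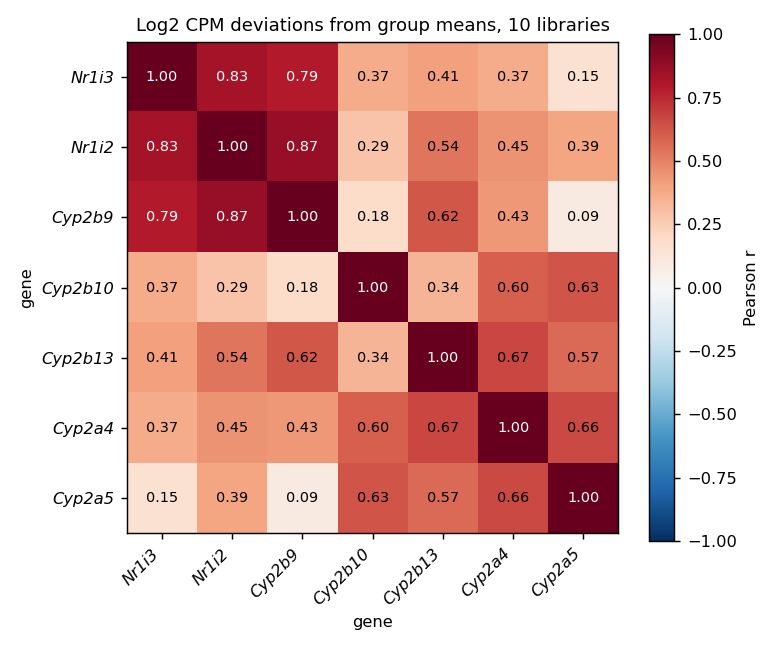
Pearson r between log2 CPM deviations from the group means over 10 libraries, for each pair of the 7 genes, both axes listing the genes and colour giving r from -1 to 1. Nr1i3, Nr1i2 and Cyp2b9 form a block of r = 0.79 to 0.87, and the next highest pair is Cyp2b13 and Cyp2a4 at 0.67.

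The livers highest in Nr1i3 were also highest in Xist. The 4 livers with the most Nr1i3 (vehicle replicates 1 and 5, napabucasin replicates 1 and 5) were the 4 with the most Xist, at 663, 752, 684 and 951 CPM against 178 to 435 CPM in the other 6. The division is a narrow one, since the lowest of the 4 had 51.0 CPM of Nr1i3 and the next liver, napabucasin replicate 2, had 50.7 CPM. For Nr1i2 the 4 highest livers were not the same, with napabucasin replicate 2 (86.6 CPM) in place of vehicle replicate 1 (73.8 CPM). This was seen after the values were known, and its part in the relations between genes was not tested.

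Among 13335 other genes averaging 1 CPM or more, those whose deviations over the 10 livers were most like each member were ranked by Pearson r, as a description. For Nr1i3 they were Cnst (0.97), Cdc42bpg (0.95) and Rtkn (0.95), for Nr1i2 Dnmbp (0.97), Sec14l4 (0.97) and Fam169b (0.96), and for Cyp2b9 Tmem245 (0.98), B4galnt1 (0.95) and Dlst (0.95). For Cyp2b10 they were Gsta2 (0.93), a glutathione S-transferase, Akr1b7 (0.93), an aldo-keto reductase, and Gm7160 (0.91). Gsta2 and Akr1b7 are also on the list of CAR and PXR targets described below, and what this likeness rests on was not tested. Gsta2 measured 16.2, 1.56, 3.84, 9.22 and 12.1 CPM in vehicle and 2.49, 10.8, 3.54, 2.78 and 6.02 CPM in napabucasin livers, lowest in vehicle replicate 2 like Cyp2b10. Akr1b7 was likewise lowest in vehicle replicate 2, at 0.872 CPM against 1.98 to 6.24 CPM in the other livers. For Cyp2b13 they were Ndst1 (0.94), Jmjd8 (0.94) and Nectin2 (0.93), for Cyp2a4 Col4a4 (0.96), H2-Q7 (0.95) and D3Ertd751e (0.93), and for Cyp2a5 Serpina1d (0.97), Aldh7a1 (0.96) and Spry4 (0.96).

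Other genes around the members gave a mixed picture, and edgeR called none of those tested after adjustment. Their lists were chosen with earlier results of these data known, so the counts given here and below are a description only. DESeq2, which called 1.7% of all genes, called 3 clock-related genes (1 higher, 2 lower), 2 female-biased genes and 2 pericentral genes, all 4 lower. Limma-voom, which called 1.1% of all genes, called 4 clock-related genes (3 higher, 1 lower) and 2 pericentral genes, both lower. Without vehicle replicate 1, edgeR called 3 clock-related genes (2 higher, 1 lower) and 1 pericentral gene, lower, and without a filter 1 pericentral gene, lower. Over all genes these settings called 18 of 14520 and 19 of 26567. Of 37 tested targets of CAR and PXR outside the members, 15 lay higher and 22 lower (median -0.07 on the log2 scale), and 0 higher and 2 lower had an unadjusted p under 0.05 (edgeR, against 9.34% and 5.83% of all genes). The 2 were Cyp3a13 (-0.61) and Por, which passes electrons to microsomal P450 enzymes (-0.63, edgeR adjusted p = 0.315). The median was -0.22 without vehicle replicate 2 0.13 without vehicle replicate 1 and 0.06 with library size as the only scaling, so its sign was not settled. Por measured 225, 136, 317, 304 and 429 CPM in vehicle and 163, 174, 163, 157 and 253 CPM in napabucasin livers, and Alas1, which starts the synthesis of the heme that P450 enzymes carry, had -0.66 (SE 0.41). Cyp3a11, a PXR target, had -0.14 (SE 0.30). Abcc4, an export pump, had 0.37.

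Partners and regulators of the receptors were measured at 26 of 26 genes, 16 higher and 10 lower with a median of 0.07. Of these, 4 higher and 2 lower had an unadjusted p under 0.05 by edgeR, against 9.34% and 5.83% of all genes. Nr0b2, the corepressor SHP, had a log2 fold change of 0.92 (edgeR adjusted p = 0.235), and the coactivator Ncoa3 had 0.56. Cebpa, a member of the C/EBP family, measured 172, 177, 209, 187 and 221 CPM in vehicle and 62.2, 111, 145, 159.9 and 126 CPM in napabucasin livers, groups that did not overlap, as for 2.15% of all genes (log2 fold change -0.68, edgeR adjusted p = 0.256). Rxra, the shared partner of CAR and PXR, had -0.56 (SE 0.27, edgeR adjusted p = 0.337), Hnf4a -0.44 (SE 0.22) and the glucocorticoid receptor Nr3c1 0.07 (SE 0.14).

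The PAR bZIP factors Dbp, Hlf and Tef are clock outputs known to act upstream of Nr1i3 in mouse liver. Of 15 such factors and clock genes tested, 5 lay higher and 10 lower. By edgeR 2 in each direction had an unadjusted p under 0.05, against 9.34% higher and 5.83% lower over all genes. Dbp measured 1.54, 14.5, 25.8, 7.47 and 18.3 CPM in vehicle and 1.68, 2.33, 2.16, 0.641 and 1.92 CPM in napabucasin livers, with only vehicle replicate 1 as low as the napabucasin livers (log2 fold change -2.95, edgeR adjusted p = 0.157). Hlf had -1.06 (edgeR adjusted p = 0.185), Tef -0.29 (SE 0.28), Cry1 1.27 and Arntl 1.11, while Nr1i3 itself differed by 0.15. The sampling hours are not given in the labels.

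Of 8 other genes in the chromosome 7 cluster 5 were tested, and 3 of the 5 lay lower with a median of -0.26. Cyp2g1 had -0.97 (SE 0.50, edgeR unadjusted p = 0.0751) and Cyp2f2 -0.43 (SE 0.28). Female-biased liver genes outside the members lay lower in 16 of 20, with a median of -0.74. By edgeR 1 higher and 8 lower had an unadjusted p under 0.05, against 9.34% higher and 5.83% lower over all genes. The 8 lower became 5 with library size as the only scaling, where 361 of 14244 genes were lower at that p. Without a filter they were also 5, where 1412 of 26567 genes were lower. Cyp17a1, a steroid hydroxylase, had -2.02, with 36.6 CPM or more in every vehicle and 30.6 CPM or less in every napabucasin liver. The groups likewise did not overlap for 2.15% of all genes. Acot3 had -1.99, Cyp4a10 -1.28 and Hao2 1.14. Male-biased genes lay lower in 8 of 14 with a median of -0.10, and 0 had an unadjusted p under 0.05 by edgeR, against 15.2% of all genes. NRF2 targets, which respond to quinones, lay higher in 8 of 15 with a median of 0.00, with Gclc at 0.78, Osgin1 at 0.98, Srxn1 at -0.49 and Nqo1 at -0.22 (SE 0.31). Pericentral genes, expressed in the zone where the CAR targets are strongest, had a median of -0.17 over 16, 7 of them higher, with Tbx3 at -1.28 and Cldn2 at -0.90, and periportal genes a median of -0.46 over 11, 2 of them higher. By edgeR 2 of the pericentral and 5 of the periportal genes were lower at an unadjusted p under 0.05, and 0 of either higher. Over all genes the shares were 5.83% lower and 9.34% higher. The pericentral median changed sign without vehicle replicate 1 (0.08) and by limma-voom (0.07), and the medians of the male-biased genes (0.04 without vehicle replicate 1), the NRF2 targets (-0.10 without napabucasin replicate 2) and the receptors' partners (-0.0057 without napabucasin replicate 4) also changed sign under at least 1 alternative.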

How the data were processed

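Poly(A) RNA of whole liver was sequenced, with random priming, per the labels' protocols. The authors deposited whole-number read counts per gene; the tools named in the submitters' processing notes are CASAVA, HISAT2 2.0.5 and featureCounts 1.5.0-p3, with GRCm38 (mm10). The deposited FPKM were made by the authors with 1 denominator per library, checked on the values. That denominator did not follow the library totals. Strand setting, annotation release and read length: not given in the sources.

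The count test was that of edgeR 4.0.16 under R 4.3.3 (filterByExpr, TMM, robust quasi-likelihood F test, treatment as the only term), with Benjamini-Hochberg adjustment over all genes and a threshold of 0.05. Standard errors are those implied by the F statistic. The procedure was tested on simulated data. Alternatives were DESeq2 1.42.0, limma 3.58.1 on counts (voom) and on log2(FPKM + 1) and log2(FPKM + 0.1), other scalings and filters, a replicate block and each library left out. Log2 CPM used a prior count of 2, and correlations 100000 permutations. Same-numbered libraries deviated together with r of 0.154, 0.227, 0.208, 0.270 and 0.278, each above 0.1. The same-numbered library was the best match for vehicle replicates 3, 4 and 5. Vehicle replicate 1 was most like napabucasin replicate 5, and vehicle replicate 2 most like napabucasin replicate 1. Pairing by number is therefore uncertain. The fits printed in the Results leave it out except where a block for replicate number is named, and that block was run as an alternative.

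The members and 10 gene lists were chosen with earlier results of these data known. Named genes are the members, up to 4 members of a list with the smallest p, 3 genes most like each member, and a fixed set of regulators. A gene that this rule also names is not reported here. Of 240 list names, 2 were not in the table. Whether the livers came from separate cages or days is not labelled, so p-values reflect variation among these libraries.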

Additional observations from a re-analysis of the deposited data

Results flagged for a closer look

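Of 18 groups of 5 values examined (the 7 genes' CPM and the 2 shares within pairs, in each treatment group), 1 had an outlying liver; about 0.9 would be expected by chance. Cyp2b9 was at 482 CPM in vehicle replicate 5 against 212 to 288 CPM in the other vehicle livers. The gap to the nearest liver was 0.717 of the whole range, above the critical value of 0.71. The same liver was also the highest of the 10 in Cyp2b13, at 271 CPM, and in Nr1i3, at 67.5 CPM.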

How the results depend on the processing

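Over 183 alternative values of the member and summed log2 fold changes, none passed the threshold (smallest adjusted p 0.116, Cyp2a4 by limma-voom), 178 kept their direction and 5 did not. The direction of Nr1i3 changed with limma-voom (-0.0047) and without napabucasin replicates 1 (-0.0035) and 5 (-0.0080), and that of Cyp2b10 with limma-voom (-0.021) and without napabucasin replicate 2 (-0.38). With 1 library left out, Nr1i3 ran from -0.0080 to 0.37 and Cyp2b10 from -0.38 to 0.90. The difference in the Cyp2a5 share ran from -4.62 to 5.02 percentage points, negative without vehicle replicates 2 (-4.62) and 4 (-4.45) and napabucasin replicates 2 (-2.14) and 3 (-1.99). That in the Cyp2b13 share ran from -5.10 to 0.15, positive without napabucasin replicate 1 (0.15). Over the whole table edgeR called 0 genes, 1 with library size as the only scaling, 19 without a filter, 18 without vehicle replicate 1 (0 to 18 over all libraries left out), 242 by DESeq2, 156 by limma-voom and 1 on log2(FPKM + 0.1); none was a member. With the replicate block 0 genes were called, and no member's call changed (Cyp2a4 -0.65, adjusted p = 0.233; Cyp2a5 -0.69, adjusted p = 0.429). The causes were not tested. With 5 livers a group, intervals as wide as that of Cyp2b10 leave its direction unsettled.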
